A study of Caenorhabditis elegans with 2 samples.

Results

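The subject here is the galectin family of Caenorhabditis elegans, the genes lec-1 to lec-10, as read on 2 Affymetrix arrays of whole animals. Members were selected by symbol from the platform annotation, taking every probe set that it gives to 1 gene alone. All 10 genes were found, with 17 probe sets among them, out of 17138 genes on the array. The family was chosen from earlier results of these data in which it was higher, so the ratios below describe it and are not a test of it.

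In the first group the animals ate the HT115 strain of Escherichia coli making double-stranded RNA against imp-2, a gene for an intramembrane aspartyl protease related to the presenilins. In the control group the same bacterial strain made double-stranded RNA against the gene of green fluorescent protein (GFP). Eating such bacteria sets off RNA interference (RNAi) in this animal. Each group was 1 array of total RNA, so there is no spread between cultures, no p-value, and no replicate check of any difference. The worm strain, stage and number of animals have no mention in the labels, which add a mammalian brain region to the whole animal.

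Galectins are lectins that bind sugars ending in beta-galactose. They are made without a signal peptide, work inside cells or leave them by an unusual route, and can cross-link glycoproteins and glycolipids at the surface. The nematode family has tandem-repeat members, with a pair of carbohydrate-recognition domains in 1 chain (lec-1 to lec-5), and prototype members with a single such domain (lec-6 to lec-11). In nematodes a common ligand is galactose joined to fucose on the core of N-glycans, and some members also bind the glycolipids that serve as receptors for a Bacillus thuringiensis crystal toxin.

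The authors deposited linear intensities, 1 for each probe set on each array, and had already scaled them. With 2% trimmed from either end, the mean intensity came to 150.0 on each array. Log2 intensities correlated with a Pearson r of 0.912 over the 22548 non-control probe sets, which is a correlation across probe sets and not across replicates. The 3′ over 5′ ratios of the RNA integrity controls ran from 1.12 to 16.7 on the imp-2-labelled array and from 1.37 to 12.1 on the GFP-labelled array. On the imp-2-labelled array they were lower for actin (2.31 against 3.64) and Gapdh (1.12 against 1.37). They were higher there for ubiquitin (16.7 against 12.1) and catalase (8.03 against 6.49). The effect of these differences on single probe sets was not tested. The targeted gene did not settle the labels. Its brighter probe set read 1754 on the imp-2-labelled array and 2318 on the GFP-labelled array (log2 ratio −0.41), while the other read 2517 on the imp-2-labelled array and 509.8 on the GFP-labelled array (log2 ratio 2.29). Directions are therefore directions between the 2 arrays as labelled.

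Of the 10 galectin genes, 9 counted as expressed, meaning that their log2 intensity, averaged over the arrays, exceeded the median of all non-control probe sets. On the imp-2-labelled array 4 of these 9 were higher by 2-fold or more (lec-6, lec-8, lec-4 and lec-10), 0 were lower by as much and 5 differed by less. Among all 8553 expressed genes, 9.72% were higher by 2-fold or more and 2.27% lower by 2-fold or more. The median log2 ratio of the 9 galectins was 0.51, beside a median of 0.00 over all expressed genes, on which the ratios are centred. Ratios above 0 were seen for 7 of the 9, against 50.0% of expressed genes. Because the family was chosen for being higher, nothing is read from these shares. In whole animals, more cells of a type and more RNA per cell cannot be told apart.

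**Figure D1:**
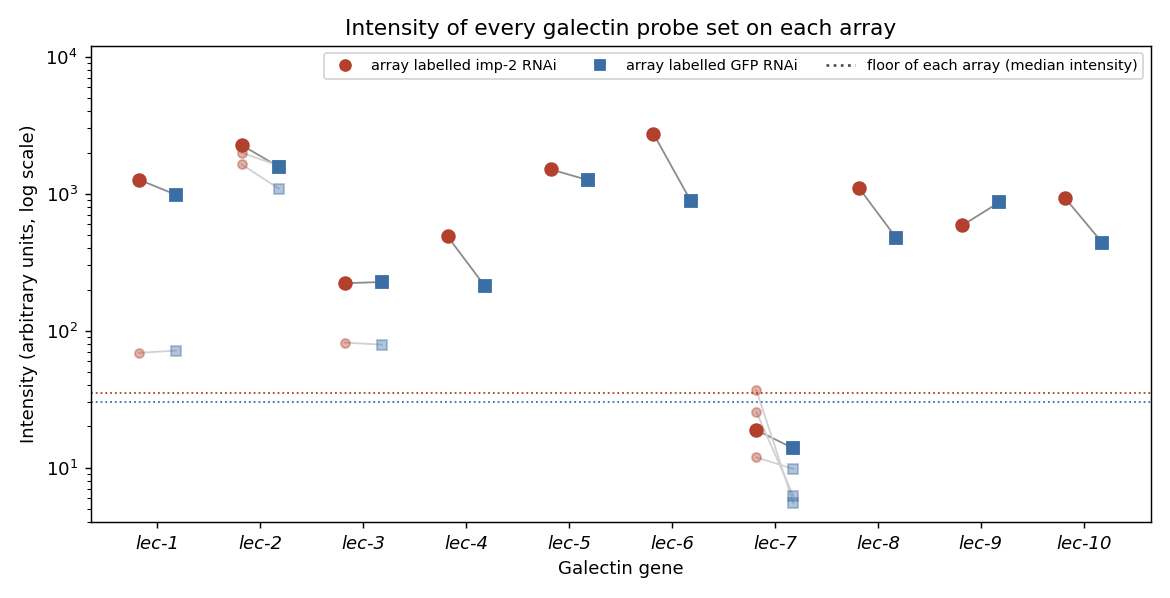
Intensity (arbitrary units, log axis) of each of the 17 galectin probe sets on the array labelled imp-2 RNAi (circles, left) and the array labelled GFP RNAi (squares, right). Lines join the same probe set, large symbols mark the probe set that stands for the gene, and dotted lines are the floors of 35.3 on the imp-2-labelled array and 30.1 on the GFP-labelled array; lec-6 has the steepest drop to the right above the floors, lec-9 runs the other way, and all lec-7 readings lie below the floors except the 36.8 on the imp-2-labelled array.

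The prototype galectins held the highest and the lowest ratio of the family. The gene lec-6 (Y55B1AR.1), whose protein binds the galactose and fucose unit of worm N-glycans, read 2740 on the imp-2-labelled array and 892.8 on the GFP-labelled array. This was 3.05-fold higher on the imp-2-labelled array (log2 ratio 1.61), a ratio that 179 expressed genes (2.09%) matched or passed. The gene lec-8 (R07B1.10), whose protein binds glycolipids and takes part in defence against the crystal toxin, read 1093 on the imp-2-labelled array and 473.6 on the GFP-labelled array. It was 2.29-fold higher (log2 ratio 1.20), and 6.49% of expressed genes had a ratio at least as high. Its probe set, like those of lec-2, lec-4 and lec-5, carries a suffix (s or x) that marks possible matches to several transcripts.

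The prototype gene lec-10 (W01A11.4) read 926.8 on the imp-2-labelled array and 439.0 on the GFP-labelled array, which was 2.10-fold higher (log2 ratio 1.07). In the other direction, lec-9 (C16H3.2) read 587.4 on the imp-2-labelled array and 868.1 on the GFP-labelled array. That was 1.49-fold lower on the imp-2-labelled array (log2 ratio −0.57) and the lowest ratio among the 9 expressed members. Each of these 4 prototype genes has 1 probe set, so none of their ratios has a second reading on these arrays.

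The last prototype member, lec-7 (R07B1.2), was dim on both arrays and did not count as expressed. Its 4 probe sets read 11.9, 18.8, 25.5 and 36.8 on the imp-2-labelled array and 9.80, 13.8, 6.19 and 5.49, in the same order of probe sets, on the GFP-labelled array. Every set thus read higher on the imp-2-labelled array, but the floors, which are the median intensities of the arrays, were 35.3 on the imp-2-labelled array and 30.1 on the GFP-labelled array. Only the 36.8 lies above its floor, and it gives a bound of at least 1.21-fold. The highest of 27 controls for bacterial transcripts that the sample lacks read 14.4 on the imp-2-labelled array and 15.3 on the GFP-labelled array, so all 4 lec-7 readings on the GFP-labelled array fall in the range of these controls. In the gene table of the WBcel235 assembly lec-7 and lec-8 are neighbours, with 0 protein-coding genes between them.

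Of the 5 tandem-repeat genes, 1 was higher by 2-fold or more on the imp-2-labelled array and 4 differed by less than 2-fold. Among all expressed genes 9.72% were higher by 2-fold or more. The tandem-repeat gene past 2-fold was lec-4 (C44F1.3), which read 488.5 on the imp-2-labelled array and 212.9 on the GFP-labelled array, 2.28-fold higher (log2 ratio 1.19). The gene lec-5 (ZK1248.16) read 1509 on the imp-2-labelled array and 1260.5 on the GFP-labelled array, with a log2 ratio of 0.25, and like lec-4 it has 1 probe set.

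Repeat readings exist for lec-1, lec-2 and lec-3. All 3 probe sets of lec-2 (F52H3.7) read higher on the imp-2-labelled array, at 2263, 1990 and 1638 against 1575, 1606 and 1091 on the GFP-labelled array, with log2 ratios of 0.51, 0.30 and 0.58. For lec-1 (W09H1.6), whose protein is known from the cuticle and pharynx, the brighter set read 1270.1 on the imp-2-labelled array and 984.8 on the GFP-labelled array (log2 ratio 0.36). Its other set, at 69.0 on the imp-2-labelled array and 71.5 on the GFP-labelled array, gave −0.06, so the probe sets of lec-1 do not share a sign. Those of lec-3 (ZK892.1) lay close to no difference, at 222.2 on the imp-2-labelled array and 227.0 on the GFP-labelled array on the brighter set (log2 ratio −0.04) and at 81.9 on the imp-2-labelled array and 79.2 on the GFP-labelled array on the other (0.04).

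As groups, the 4 expressed prototype genes from lec-6 to lec-10 had a median log2 ratio of 1.13 and the 5 tandem-repeat genes one of 0.36. These groups overlap: lec-9 lies below every tandem-repeat gene and lec-4 lies above lec-10. The split by domain number was made with the ratios known, and the difference was not tested.

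Disagreement between probe sets of 1 gene gives the only spread these arrays hold. Over 2489 pairs of expressed probe sets that share a gene, the root mean square difference of the log2 ratios was 0.53, which corresponds to 0.37 for 1 probe set. This spread does not measure variation between cultures or repeat arrays, so it is not the error of a difference between groups. Taking 0.37 off leaves lec-6 at 1.23, still past 2-fold, but lec-8 at 0.82, lec-4 at 0.81 and lec-10 at 0.69, all short of it. In the order of ratios (lec-6, lec-8, lec-4, lec-10, lec-2, lec-1, lec-5, lec-3, lec-9) neighbours differed by more than the value of a pair in 2 places, between lec-10 and lec-2 (0.555) and between lec-3 and lec-9 (0.533, against 0.527 for a pair). The other neighbours differed by 0.01 to 0.41. Of the 36 possible pairs of the 9 genes, 26 differed by more than that value. It is a root mean square and not an upper limit, and the share of same-gene pairs above it was not computed. The 36 pairs rest on only 9 ratios, so these counts do not settle the order of the genes.

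The log2 ratio varied with brightness across all genes. Expressed genes cut into 10 equal bins of brightness had a median log2 ratio of 0.24 in the dimmest bin and −0.09 in the brightest. All 9 expressed galectins were above the 75th percentile of probe set brightness, where 4.49% of 4411 genes were higher by 2-fold or more. The gene lec-6 sits in the brightest bin, with 2.69% of genes higher by that much, and lec-8 and lec-10 sit in the next bin, with 2.22%. The bin of lec-4, the seventh, had 5.03%.

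**Figure D2:**
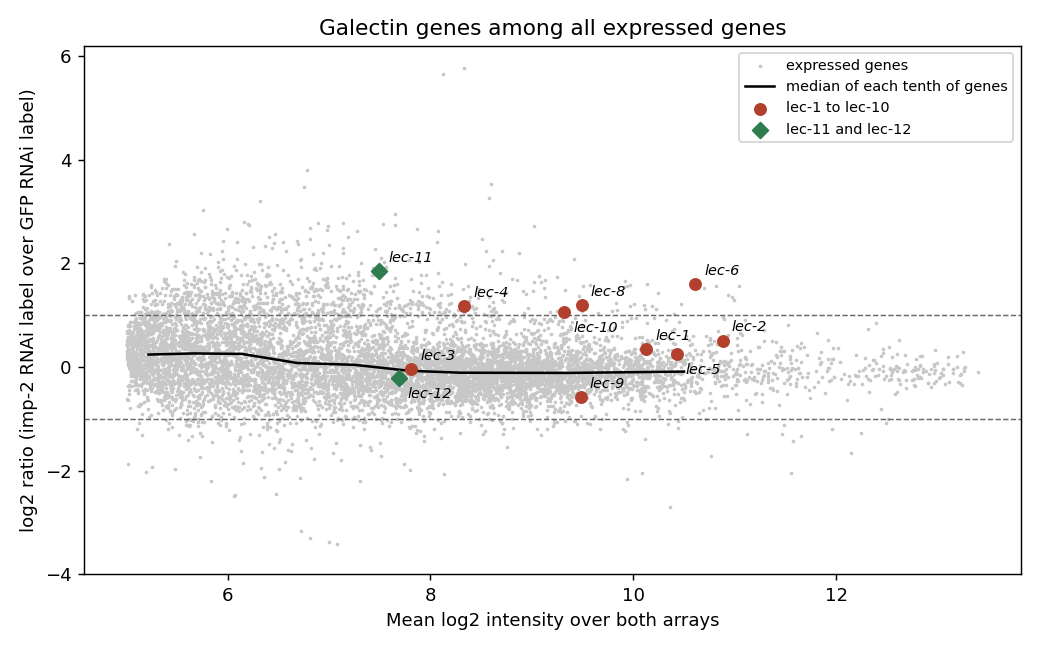
Log2 ratio of the imp-2-labelled over the GFP-labelled array against mean log2 intensity for 8553 expressed genes (grey), the 9 expressed members of lec-1 to lec-10 (circles) and lec-11 and lec-12 (diamonds). The black line joins the medians of 10 brightness bins and dashed lines mark 2-fold; lec-4, lec-6, lec-8, lec-10 and lec-11 lie above the upper one and no galectin lies below the lower one.

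Outside lec-1 to lec-10, the annotation holds lec-11 and lec-12. The prototype galectin gene lec-11 (F38A5.3) read 346.1 on the imp-2-labelled array and 94.4 on the GFP-labelled array, 3.64-fold higher, and its log2 ratio of 1.86 exceeded that of every member described above. Its 1 probe set also carries the suffix s. The gene lec-12 (DC2.3) read 192.7 on the imp-2-labelled array and 220.7 on the GFP-labelled array (log2 ratio −0.21) on its brighter set, and its other set gave 0.32.

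None of the expressed genes listed for building the sugars that galectins can bind passed 2-fold. Of 20 listed, 17 were read by their own probe sets and 13 were expressed, and 0 of the 13 differed by 2-fold or more in either direction, beside the 9.72% and 2.27% of all expressed genes. So few genes cannot tell a count of 0 from those shares, and nothing is read from it. The 13 genes had a median log2 ratio of 0.00 and a range of −0.38 to 0.96. The nearest to 2-fold was bre-3, a glycosyltransferase gene of glycolipid synthesis needed for crystal toxin binding, which read 282.0 on the imp-2-labelled array and 144.1 on the GFP-labelled array (log2 ratio 0.96). Next came bre-1, which acts in making GDP-fucose, with a log2 ratio of 0.61. The hexosaminidase gene hex-2 had a log2 ratio of 0.51, and the UDP-galactose transporter gene ugtp-1 one of −0.38.

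For the enzymes closest to the fucose ligand the arrays say less. The galactosyltransferase gene galt-1, which adds galactose to the core fucose, lay under the floor on both arrays, as did bre-2, gmd-2 and gly-14, and no fold is given for them. The core fucosyltransferase gene fut-8, bre-5 and the epimerase gene gale-1 were not analysed here. On another probe set gly-13 gave a log2 ratio of 0.83 where its brighter set gave 0.00, so the reading of that gene, singled out after its values were seen, depends on the probe set.

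Markers of tissues in the whole animal were set beside the family. Of 10 expressed intestine markers, 3 were higher by 2-fold or more (ges-1, 2.72-fold, elt-7, at least 2.24-fold, and ifb-2, 2.15-fold) and 0 were lower by as much, beside 9.72% and 2.27% of all expressed genes, with a median log2 ratio of 0.54. In the brightness bins of ges-1, elt-7 and ifb-2, 17.0%, 18.7% and 13.3% of genes were higher by 2-fold or more. Of the other expressed intestine markers, act-5 had a log2 ratio of 0.93, pept-1 0.70, vha-6 0.39 and asp-1 0.16. The log2 ratios were −0.16 for spl-1, −0.18 for pho-1 (0.55 on its other set) and 0.00 for mtl-2. The intensities of the 10 markers summed to 6837 on the imp-2-labelled array and 5635 on the GFP-labelled array, of which asp-1 alone gave 4252 on the imp-2-labelled array and 3790 on the GFP-labelled array. The gene elt-2, which encodes the defining intestinal transcription factor, lay under the floor on both arrays. Of 8 epidermis markers, 3 were higher by 2-fold or more (rol-6, at least 3.02-fold, let-805, 2.39-fold, and mup-4, 2.30-fold) and 0 were lower by as much, beside the same shares of all expressed genes, with a median of 0.35. The brightness bins of rol-6, let-805 and mup-4 had 8.18%, 8.42% and 13.3% of genes higher by 2-fold or more. In the epidermis list lin-26 had a log2 ratio of −0.28 and vab-10 one of −0.43, with 0.53, −0.64 and 0.87 on its other expressed sets. The collagen gene sqt-3 had 0.09 on the set used and 1.43 on its other set. Summed intensities were 6983 on the imp-2-labelled array and 6329 on the GFP-labelled array, of which sqt-3 alone gave 5577 on the imp-2-labelled array and 5208 on the GFP-labelled array.

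The remaining tissues showed no marker past 2-fold, beside 9.72% of all expressed genes higher and 2.27% lower by as much. The germ line markers all lay in bins 9 and 10 of brightness, where 2.22% and 2.69% of genes were higher by 2-fold or more. The expressed body wall muscle markers also lay in bin 10, except myo-3 in bin 6, where 8.42% were higher by as much. Expressed pharynx markers ran from bin 2, with 18.7%, to bin 9. With so few markers in each list, nothing is read from these counts. The medians were 0.03 over 5 expressed pharynx markers, 0.16 over 6 body wall muscle markers and −0.14 over 9 germ line markers. On the imp-2-labelled array the summed intensities were 1558 for pharynx, 15578 for body wall muscle and 14556 for germ line. On the GFP-labelled array they were 1519 for pharynx, 14229 for body wall muscle and 15985 for germ line. The transcription factor genes ceh-22 of the pharynx and hlh-1 of body wall muscle lay under the floor on both arrays. The part of the tissue markers in the galectin ratios was not tested.

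**Figure D3:**
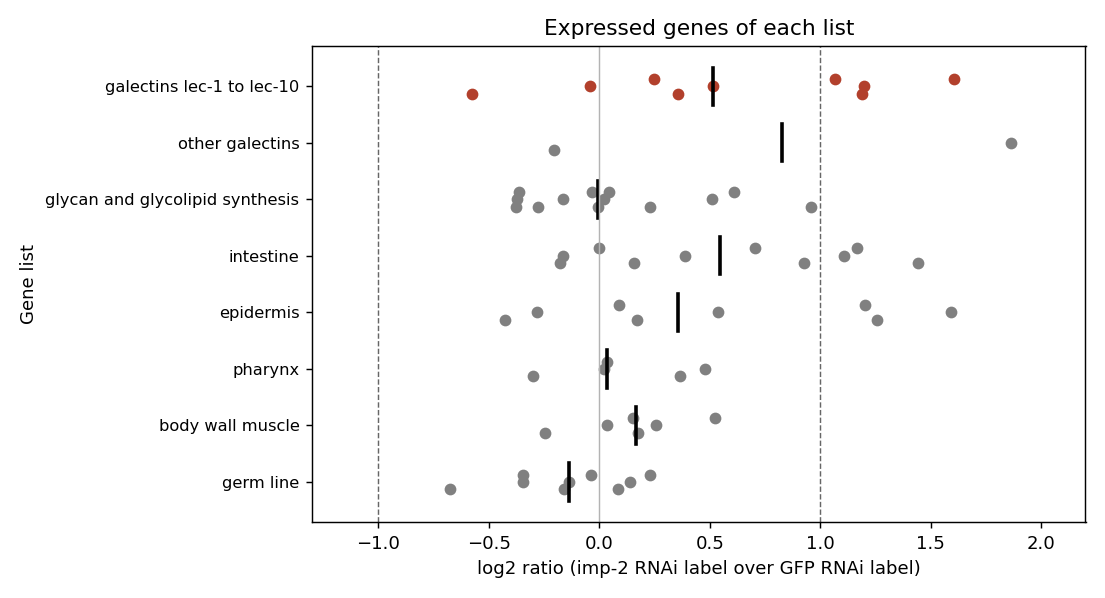
Log2 ratio (imp-2-labelled over GFP-labelled array) of each expressed gene (points) in the galectin family and in the comparison lists, with the median of each list as a black bar and 2-fold as dashed lines. Points are spread up and down for legibility, and elt-7, rol-6 and gly-12 are bounds; the galectin median is 0.51, that of the glycan and glycolipid genes 0.00 and that of the intestine markers 0.54.

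The 4 galectins past 2-fold kept log2 ratios of about 0.85 or more in each processing setting that could read them. Each has 1 probe set, above both floors, so most settings could only shift all 4 by the same amount. Only quantile normalization and intensity-dependent centring could move them separately, and likeness under the other settings is no check of a ratio. These 4 were again the genes past 2-fold with no floor, after quantile normalization, with intensity-dependent or no centring, with the mean of all probe sets and among the brightest genes. With no filter on dim genes, only lec-6 stayed past 2-fold (1.39), because the centre of the ratios is then the 0.23 of genes under both floors, and lec-8, lec-4 and lec-10 had 0.98, 0.97 and 0.85. Among members read on a set without the suffixes s or x, lec-6 and lec-10 were past 2-fold, and lec-4 and lec-8 have no such set.

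**Figure D4:**
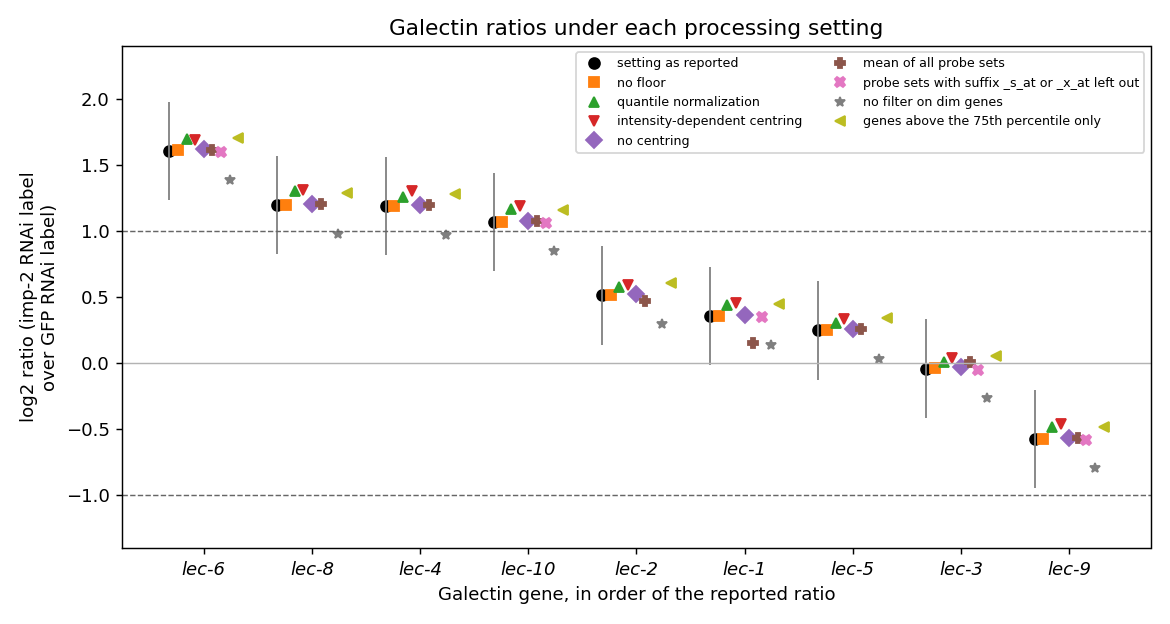
Log2 ratio (imp-2-labelled over GFP-labelled array) of the 9 expressed galectins under the reported setting (black) and 8 others, with grey bars of 0.37 on each side of the reported value for the disagreement between probe sets of 1 gene. Dashed lines mark 2-fold; lec-6 lies above the upper line in every setting, and lec-8, lec-4 and lec-10 drop below it only with no filter on dim genes.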

How the data were processed

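Whole Caenorhabditis elegans were profiled on 2 Affymetrix arrays, 1 for each RNAi group of the labels. The authors deposited linear intensities, already summarised per probe set. How they summarised, corrected and scaled them is not stated in the labels or the file, and no detection calls were used here. The 20766 probe sets with 1 gene in the platform annotation were named through the WBcel235 gene table. Intensities were converted to log2, values under an array's median were set to it as a floor, and the probe set with the highest mean stood for a gene. The median of the expressed genes (0.01) was subtracted from every log2 ratio, and 2-fold was the size that counted. No test was possible with 1 array per group, and their number limits the precision. The alternatives were no floor, quantile normalization, 2 other centrings, averaged probe sets, other filters and 1.5-fold. Steps were tested on simulated data. Python 3.11.15, numpy 2.4.6 and pandas 2.3.3 were used. Every member was named with all its probe sets. All expressed comparison genes past 2-fold were named, and of the glycan and glycolipid genes the 4 with the largest absolute log2 ratio. Other comparison genes, among them the tissue markers within 2-fold, were named outside this rule with their values known. Members and lists were chosen with earlier results of these data known. Sequences were not used here.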

Additional observations from a re-analysis of the deposited data

How the results depend on the processing

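The median log2 ratio of the galectins was 0.51 over the 9 expressed members and lay between 0.21 and 0.61 over the 8 other settings that give one; the 0.21 is over 10 members, since the setting with no filter on dim genes adds lec-7 with both readings at the floor. The count of members higher by 2-fold or more on the imp-2-labelled array was 4, and it was 1 with no filter on dim genes, where the centre is set by genes under both floors, and 2 once probe sets with the suffixes s or x were left out, which keeps 5 members. With 1.5-fold as the size the counts were again 4 higher and 0 lower, beside 19.0% and 9.60% of expressed genes. Single members moved by less than the 0.37 of a probe set in all 68 readings of the 9 expressed genes under the other settings, and lec-7 is not among them. These readings are not separate checks, because most of the settings change only the centre and shift every member alike. Quantile normalization and intensity-dependent centring could move a member on its own. For members with several probe sets, so could the mean of those sets. The share of higher among all genes past 2-fold was 81.1%, and 71.7% with intensity-dependent centring and 56.9% with no filter. No paired analysis was possible because each group holds 1 array, and no array could be left out for the same reason.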
